A study of Homo sapiens with 6 samples.

Results

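GABPA binding sites away from the ends of protein-coding genes that were listed in both control libraries but not in the B1 knockout library were examined in A-375 cells, a line established from a human melanoma. Regions were chosen by the peak calls of all 3 libraries and by position: one belonged to this set when a parental peak was overlapped by at least 1 bp by a ROSA26 peak and by no knockout peak, and when its parental summit had no end of a protein-coding gene span within 1 kb. These rules gave 349 regions, out of 3024 parental peaks and 2969 parental peaks that had a ROSA26 peak (control-shared peaks). The 2 controls were parental A-375 cells without a knockout and A-375 cells with a knockout at ROSA26, and the third condition was A-375 in which the GABP subunit B1 had lost exon 2 to a knockout, after which TERT, the telomerase reverse transcriptase, was knocked in. Per the labels, knockout cells were grown from single sorted cells, so that genotype, knock-in and clone cannot be told apart in the knockout library. Each condition had 1 ChIP library, made with 1 GABPA antibody, and no difference below has a replicate check.

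GABP is a transcription factor in which GABPA, a member of the ETS family, contacts DNA through a purine-rich core, while its partner, the product of GABPB1 or of GABPB2, supplies the activation domain and joins GABP units. It is best known from the promoters of housekeeping and mitochondrial genes. In melanoma GABP is also known for binding TERT promoters that carry activating mutations.

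Many of the sites lay at annotated starts, against the name distal. RefSeq starts were used here for 333 of the 349 regions. Of these 333, 140 (42.04%, exact 95% interval 36.7 to 47.5) had a start within 1 kb of the summit and 101 (30.3%, 25.4 to 35.6) within 200 bp. A start inside a longer gene span is not an end of that span, which is how 79 summits lay within 1 kb of a protein-coding start, each within the span of that same gene. A further 61 lay within 1 kb of a lncRNA start and of no protein-coding start. The regions are therefore called span-distal below, after their rule. Of 196 span-distal peaks that kept a knockout peak, 117 (59.7%, 52.5 to 66.6) had a start within 1 kb. A protein-coding start lay within 1 kb of 84 of the 196 (42.9%, 35.8 to 50.1), against 23.7% (19.3 to 28.7) of the 333. Neither a start nor a noncoding gene end lay within 1 kb of 135 of the 333 (40.54%, 35.22 to 46.03). Of the 196, 51 (26.02%, 20.03 to 32.75) lay as far from both. No pair of intervals overlapped. Strength, not matched here, is crossed with starts below.

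The 10 strongest of these regions at a start, by parental fold enrichment (pileup at the summit over local background, as the authors deposited it in each list), are printed to show the DNA under the summits, each from 50 bases before to 50 after the parental summit, 5′ to 3′ on the strand of the named gene, from RefSeq GRCh38.p14. They were drawn from the 75 regions whose stretch lay wholly inside a promoter window. Capitals mark the ETS motif CCGGAAG on either strand.
CZ1P-ASNS (chr7:97972324-97972424, minus strand): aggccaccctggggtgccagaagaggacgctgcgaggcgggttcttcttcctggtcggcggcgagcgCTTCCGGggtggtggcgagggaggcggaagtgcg
TPTE2-AS1 (chr13:19587003-19587103, plus strand): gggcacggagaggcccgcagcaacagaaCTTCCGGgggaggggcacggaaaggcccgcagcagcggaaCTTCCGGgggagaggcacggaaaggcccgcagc
ZBED9-AS1 (chr6:28587284-28587384, plus strand): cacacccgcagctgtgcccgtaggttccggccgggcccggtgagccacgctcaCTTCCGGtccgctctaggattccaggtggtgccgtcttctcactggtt
LINC01535 (chr19:37251820-37251920, plus strand): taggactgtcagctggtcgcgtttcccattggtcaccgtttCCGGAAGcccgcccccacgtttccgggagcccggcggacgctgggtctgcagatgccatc
ZNF875 (chr19:37334585-37334685, plus strand): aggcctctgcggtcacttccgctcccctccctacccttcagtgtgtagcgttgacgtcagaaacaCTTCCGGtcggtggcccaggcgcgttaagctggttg
LINC01572 (chr16:72665068-72665168, minus strand): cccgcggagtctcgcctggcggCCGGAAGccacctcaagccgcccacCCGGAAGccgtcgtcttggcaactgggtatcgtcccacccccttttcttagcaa
KANSL1 (chr17:46194115-46194215, minus strand): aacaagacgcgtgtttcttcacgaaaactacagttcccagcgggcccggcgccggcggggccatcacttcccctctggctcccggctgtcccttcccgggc
LINC00652 (chr20:18794029-18794129, minus strand): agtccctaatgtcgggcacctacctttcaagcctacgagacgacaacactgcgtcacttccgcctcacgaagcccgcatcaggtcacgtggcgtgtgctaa
DALRD3 (chr3:49018558-49018658, minus strand): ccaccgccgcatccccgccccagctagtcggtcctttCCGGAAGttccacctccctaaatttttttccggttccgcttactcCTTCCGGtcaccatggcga
ZNF225 (chr19:44113330-44113430, plus strand): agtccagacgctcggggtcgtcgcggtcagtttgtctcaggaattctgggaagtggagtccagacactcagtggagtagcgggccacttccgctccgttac

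The motif stands in 7 of these 10 stretches, and 3 of them hold the motif more than once. The 2 copies at TPTE2-AS1 sit in a short stretch of sequence that is repeated within the printed bases. KANSL1, LINC00652 and ZNF225 have no match, although LINC00652 and ZNF225 carry the shorter run cttccg. The 10 printed regions had parental folds of 6.08 to 11.8, while those of kept span-distal peaks reached 20.8, so the sets were not matched for strength. For comparison, the stretches of the 3 strongest span-distal peaks that kept a knockout peak and lay in a promoter window were as follows.
CYREN (chr7:135170693-135170793, minus strand): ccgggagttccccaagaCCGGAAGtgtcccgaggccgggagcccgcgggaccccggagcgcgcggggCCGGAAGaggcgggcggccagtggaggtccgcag
MIATNB (chr22:26672741-26672841, plus strand): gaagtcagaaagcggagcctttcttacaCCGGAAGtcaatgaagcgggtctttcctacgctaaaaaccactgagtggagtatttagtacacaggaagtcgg
ZBTB45 (chr19:58519792-58519892, minus strand): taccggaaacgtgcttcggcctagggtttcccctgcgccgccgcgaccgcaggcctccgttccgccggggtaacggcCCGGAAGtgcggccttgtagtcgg

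Across the 75 stretches, 36 (48.0%, 36.3 to 59.8) held CCGGAAG on either strand. The share was 48 of 84 (57.1%, 45.9 to 67.9) at span-distal peaks with a knockout peak and 262 of 581 (45.1%, 41.0 to 49.2) at missing peaks near a gene end, and the interval of the missing span-distal peaks overlapped both. With the next base fixed as well, CCGGAAGT stood in 15 of 75 (20.0%, 11.6 to 30.8) and in 36 of the 84 kept ones (42.9%, 32.1 to 54.1), intervals that do not overlap. Missing peaks near a gene end had CCGGAAGT in 121 of 581 (20.8%, 17.6 to 24.4) and kept ones in 398 of 1030 (38.6%, 35.7 to 41.7). Stronger peaks are more often kept, and the part of strength in this difference was not tested. The 4-base core GGAA, which is common in any DNA, stood in 74 of 75 stretches, against 66.8% of the 101-base middles of all 34819 windows. Those middles are not centred on summits. The other peak groups also had the core in most stretches, with 78 of 84 kept span-distal ones (92.9%). Near a gene end it stood in 95.7% of missing and 97.0% of kept ones.

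Whole windows of 300 bases (250 before to 50 after a start) gave the background share. A summit of the set fell in 97 such windows, of which 52 (53.6%, 43.2 to 63.8) held CCGGAAG, against 3553 of all 34819 windows (10.2%, 9.89 to 10.5). Windows with a kept span-distal summit held it in 64 of 102 (62.7%, 52.6 to 72.1), and those near a gene end in 54.5% of missing and 71.8% of kept peaks. A pair or more of CCGGAAG copies stood in 6 of the 97 (6.19%, 2.30 to 13.0), in 20 of 102 windows with a kept span-distal summit (19.6%, 12.4 to 28.6) and in 1.75% of all windows. Peaks near a gene end were split likewise, with 61 of 710 missing (8.59%) and 282 of 1155 kept ones (24.4%). The part of peak strength in this difference was not tested either. GGGCGG, the core bound by SP factors, stood in 62 of the 97 (63.9%), in 60 of the 102 kept (58.8%) and in 44.95% of all. Near a gene end it stood in 71.7% of missing and 68.9% of kept ones. TGANTCA, the AP-1 motif, was found in 2 of the 97 (2.06%, 0.251 to 7.25), in 2 of the 102 and in 7.70% of all. GGAATG, the TEAD core, stood in 11 of the 97 (11.3%, 5.80 to 19.4), in 15 of the 102 (14.7%) and in 14.04% of all. Near a gene end the shares were 10.0% of missing and 9.44% of kept ones. Median GC content was 63.3% in the 97 windows, 62.3% in the 102 and 58.7% in all. The part of GC content in these shares was not tested. Each motif was searched on both strands, and a match is a description of letters in this window.

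**Figure D1:**
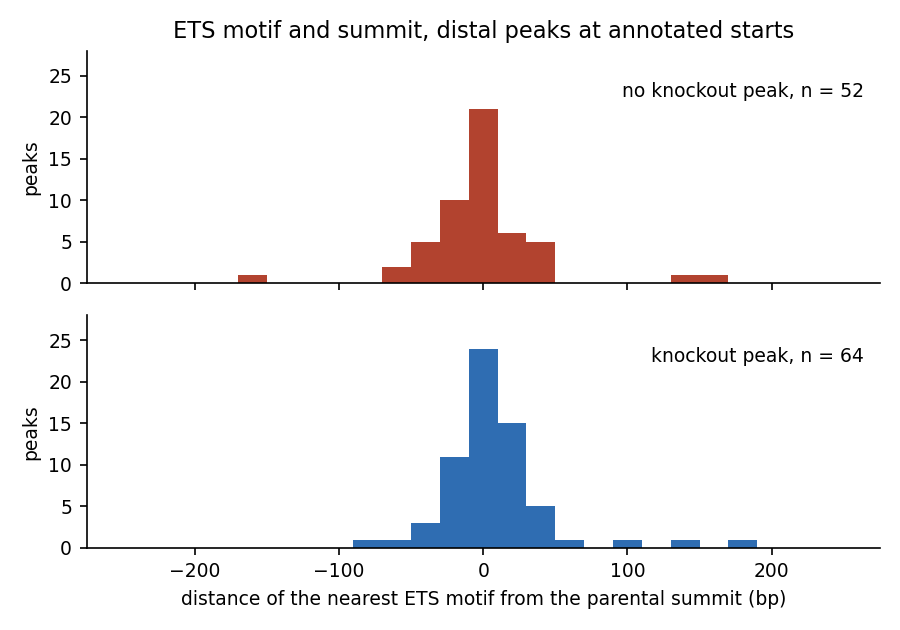
Distance in bp from the parental summit to the nearest CCGGAAG on either strand (x axis) and number of peaks (y axis), for the span-distal peaks with the motif in the window, upper panel without (n = 52) and lower panel with a knockout peak (n = 64). In both panels the highest bar stands at the summit, with 47 of 52 and 58 of 64 motifs within 50 bp.

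Where the motif was present it lay close to the summit. Its median distance was 12 bp in the 52 windows of the missing span-distal peaks, and 34 of them had it within 20 bp. In the 64 windows of kept span-distal peaks the median was 14 bp, with 42 within 20 bp. Near a gene end the medians were 19 bp for missing peaks (205 of 387 within 20 bp) and 16 bp for kept ones (487 of 829).

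Peak calls chose this set, so its size and strength are a description. Of the 2969 control-shared peaks 1341 (45.2%) had no knockout peak. Among the 554 span-distal ones the count was 349 (63.0%, 58.8 to 67.0), and among the 2415 near a gene end it was 992 (41.1%, 39.1 to 43.1). With all lists cut to the length of the shortest, the counts were 28 of 184 (15.2%, 10.4 to 21.2) and 157 of 1378 (11.4%, 9.76 to 13.2), with overlapping intervals, and 11.8% over both. The missing span-distal peaks had parental folds from 2.27 to 12.1 with a median of 3.91, and 328 of 349 lay below the median fold of all control-shared peaks (6.51). The 205 kept ones had folds of 2.44 to 20.8 with a median of 8.47. Peaks of the missing set were narrower as well, with a median parental width of 461 bp against 642 bp.

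**Figure D2:**
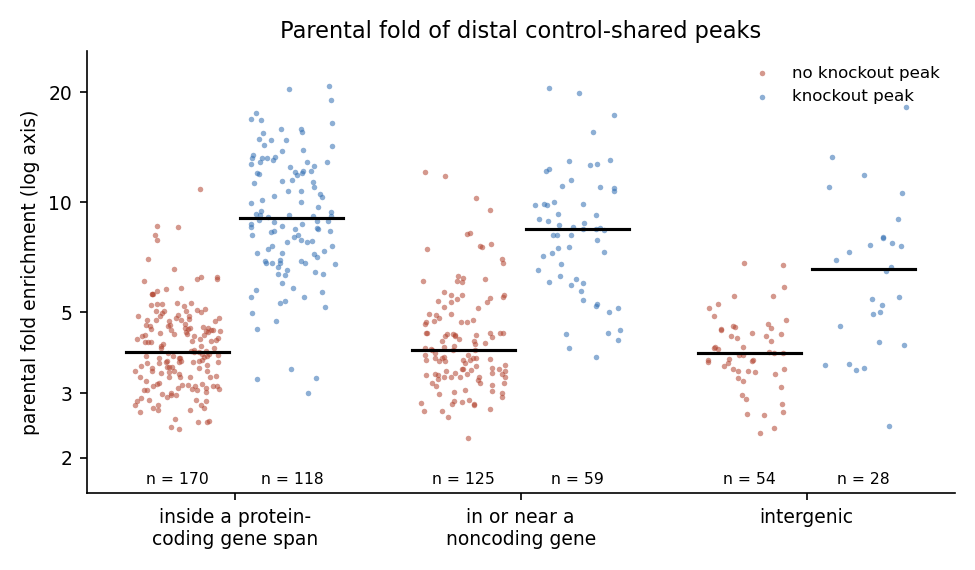
Parental fold enrichment (log axis) of each span-distal control-shared peak, by location of the summit, without (red) and with (blue) a knockout peak; horizontal lines are medians and n is the number of peaks. The red medians lie at 3.90, 3.93 and 3.87 in the 3 locations, below the blue ones.

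Strength and location were then crossed. In 4 equal bins of parental fold over all control-shared peaks, from weakest to strongest, span-distal peaks had no knockout peak in 214 of 228 (93.9%, 89.9 to 96.6), 114 of 151 (75.5%, 67.8 to 82.1), 17 of 95 (17.9%, 10.8 to 27.1) and 4 of 80 (5.00%, 1.38 to 12.3). Peaks near a gene end gave 94.2% (91.9 to 96.1), 61.5% (57.4 to 65.5), 19.4% (16.4 to 22.6) and 2.27% (1.27 to 3.71). The intervals overlapped in 3 of the bins, and the second bin (folds of 4.30 to 6.51) had the span-distal share above the other without overlap. Within the span-distal peaks, those with a start within 1 kb had no knockout peak in 97.6, 71.2, 17.0 and 3.70% of the 4 bins, and those without a start in 91.7, 78.8, 16.2 and 9.09%. Their intervals overlapped in each bin.

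**Figure D3:**
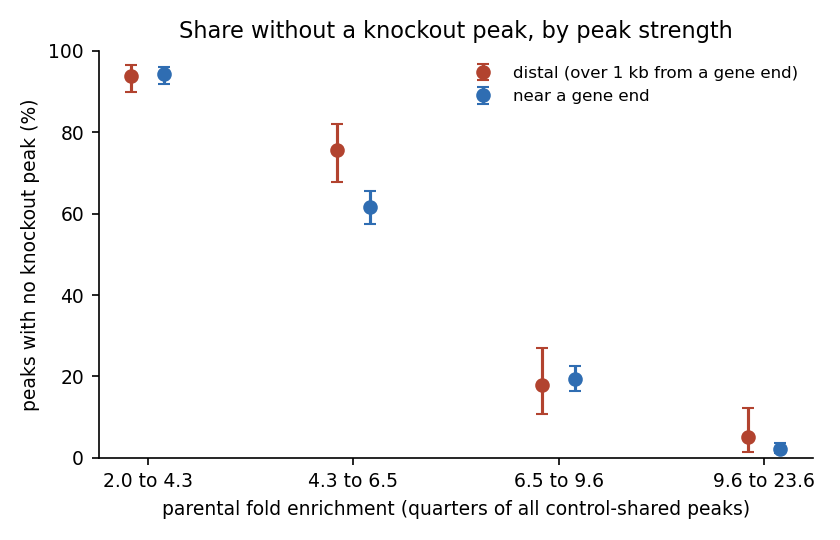
Share of control-shared peaks with no knockout peak (y axis, %) in 4 equal bins of parental fold (x axis), for span-distal peaks (red) and peaks near a gene end (blue), with exact 95% intervals. The 2 series are apart in the second bin, at 75.5 and 61.5%.

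Reads at the summit were recovered from the deposited fold and −log10 p. The missing span-distal summits had 48 to 227 reads in the parental library (median 83) and 41 to 254 in the ROSA26 library (median 92). Background pileup, which depends on how many reads a library has and how long its fragments are, was 15.4 reads for the parental library, 14.2 for ROSA26 and 9.86 for the knockout. Multiplied by the ratio of the knockout to the parental background, the parental reads of the set came to 30.7 to 145, with a median of 53.1. Peaks of the knockout list started at 29 reads and had 49 at their 10th percentile, and 208 of the 349 scaled values reached 49. The kept span-distal peaks had a median of 73 reads in the knockout library, and their ratio of observed to scaled reads had a median of 0.695 and was below 1 in 180 of 205. With that ratio applied too, the scaled reads of the missing set had a median of 36.9, 279 of 349 reached 29 and 51 reached 49. That ratio rests on listed peaks alone. Absence from the knockout list means that no peak passed the calling threshold, and binding below it was not measured.

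**Figure D4:**
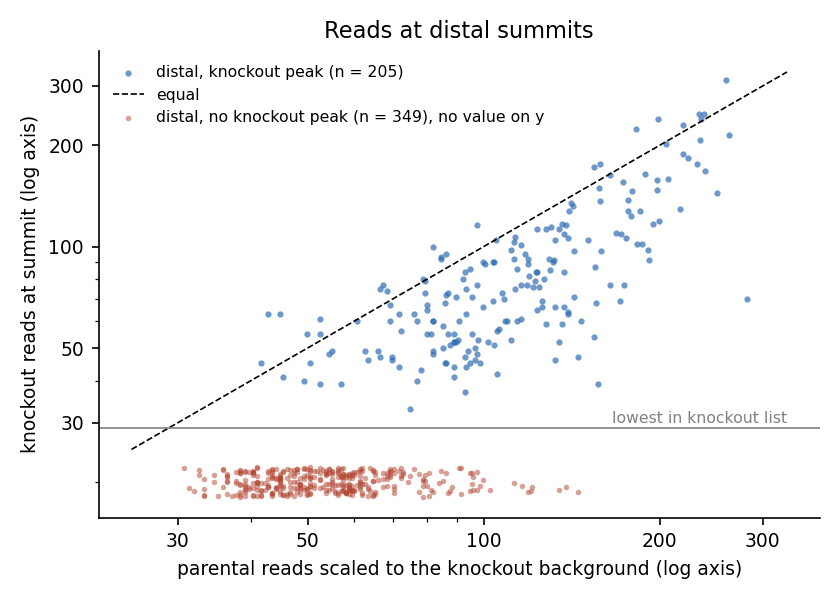
Parental reads at the summit scaled to the knockout background (x axis, log) against reads in the knockout library (y axis, log) for the 205 kept span-distal peaks (blue); the 349 missing ones (red) have no y value and are drawn as a strip along the bottom. Most blue points (180 of 205) lie under the dashed line of equality, and the red strip spans 30.7 to 145 scaled reads.

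Both controls placed most summits close together, which the rule of overlapping peaks favours. The ROSA26 and parental summits lay within 50 bp of each other in 293 of 349 regions (84.0%, 79.7 to 87.6) and within 100 bp in 336, with a median shift of 22 bp. Missing peaks near a gene end had 84.3% within 50 bp, and the kept span-distal peaks 92.2%. The ROSA26 fold exceeded the parental one in 266 of 349 regions (76.2%), and did so in 76.5% of all control-shared peaks. The nearest knockout summit lay 1109 bp away at the closest and 341825 bp away at the median. The closest case was a summit inside GATAD1.

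By location, 170 of the 349 summits (48.7%, 43.4 to 54.1) lay inside a protein-coding gene span, 125 (35.8%, 30.8 to 41.1) lay in none but inside or within 1 kb of a noncoding gene, and 54 (15.5%, 11.8 to 19.7) were intergenic. The kept span-distal peaks divided into 57.6%, 28.8% and 13.7%, and each interval overlapped that of the missing set. A start within 1 kb was found for 84 of 163 summits inside spans (51.5%, 43.6 to 59.4) and for 89 of 114 kept ones (78.1%, 69.4 to 85.3). The 3 locations had nearly the same strength, with median parental folds of 3.90, 3.93 and 3.87 and median parental reads of 82, 85 and 81.5.

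**Figure D5:**
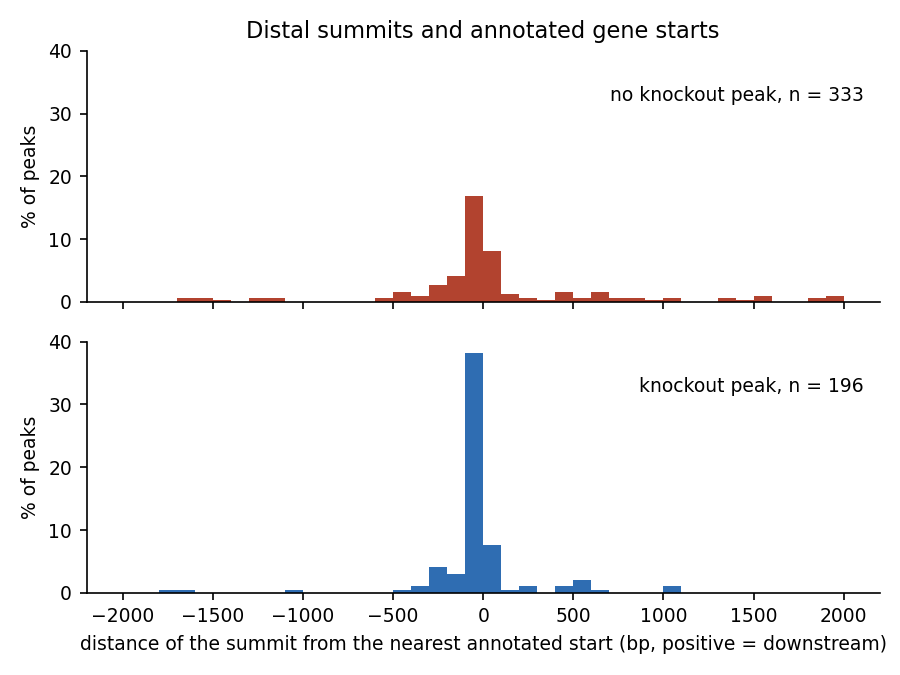
Distance of the summit from the nearest RefSeq start (x axis, bp, positive downstream, shown within 2 kb) as a percentage of all span-distal peaks on chromosomes with starts used here (y axis), upper panel without (n = 333) and lower panel with a knockout peak (n = 196). Both panels peak just upstream of the start, and 30.3% of the upper against 49.5% of the lower set lie within 200 bp.

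Of the regions inside protein-coding spans, the strongest was in ITPA, which encodes an enzyme that clears inosine triphosphate. Its peak (chromosome 20, 3209088 to 3209862) had 227 reads and a fold of 10.9 in the parental library and 250 reads and a fold of 13.2 in the ROSA26 library. The summit lay 4781 bp from the nearest protein-coding gene end, that of DDRGK1, and 5398 bp downstream of the ITPA start, so it is among the summits away from any start used here. The next, in TRIP12, a ubiquitin ligase gene (chromosome 2, 229921091 to 229921708), had 142 parental and 153 ROSA26 reads (folds 8.64 and 10.1) and a summit 279 bp downstream of the TRIP12 start. SCAND3, a gene derived from a transposable element, held a peak (chromosome 6, 28587054 to 28587632) of 148 and 142 reads (folds 8.56 and 9.40), 36 bp upstream of a SCAND3 start and 44 bp from an end of ZBED9-AS1, a lncRNA gene. These 3 peaks had more than 140 reads in each control and none was listed in the knockout.

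EIF4EBP1, a repressor of cap-dependent translation, held a peak 2355 bp from its nearer span end (chromosome 8, 38057699 to 38058261), with 160 and 155 reads (folds 8.16 and 8.47). ZNF875, a zinc finger gene in a cluster of such genes, had one (chromosome 19, 37334316 to 37334924) with 136 and 148 reads (folds 7.87 and 9.79), 11 bp downstream of a ZNF875 start. KANSL1, a subunit of a histone acetyltransferase complex, had one (chromosome 17, 46193866 to 46194477) with 186 and 222 reads (folds 7.0 and 8.98), 115 bp upstream of a KANSL1 start that lies inside the span, 31202 bp from the nearest gene end to the summit. Of these 6 strongest regions inside spans, TRIP12, SCAND3, ZNF875 and KANSL1 were at an internal start of the gene that holds them, ITPA was not, and for EIF4EBP1 no starts were used here.

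The 79 regions at an internal protein-coding start had summits upstream of it in 57 and downstream in 21. At IDI1, an isomerase of isoprenoid synthesis, 108 parental reads stood at a summit 247 bp upstream of the start (folds 6.59 parental and 10.3 ROSA26). At DALRD3, which takes part in tRNA modification, 149 reads stood 28 bp upstream (6.15 and 9.27). At ATAD1, a mitochondrial outer membrane ATPase, 125 reads stood 2 bp downstream (5.71 and 8.40). MAT2B, a subunit of methionine adenosyltransferase, had 116 reads (5.31 and 5.71) and ATP2C1, a Golgi calcium pump, 100 reads (5.63 and 4.80). Other examples were PRIM2 of the primase (folds 4.4 and 7.32), ERCC1 of nucleotide excision repair (4.79 and 3.75), CUL4B, a cullin (4.84 and 4.97), and UBE2D3, a ubiquitin-conjugating enzyme (4.43 and 6.05). These genes beyond TRIP12, SCAND3, ZNF875 and KANSL1 were named after their values were seen. Zinc finger genes with a ZNF symbol made up 11 of the 79 (13.9%, 7.16 to 23.5) and 11 of 84 protein-coding starts at kept span-distal peaks (13.1%, 6.72 to 22.2). Over the whole set a ZNF gene was the host or the nearest gene for 26 of 349 regions (7.45%), against 10.2% of the kept ones.

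Spans with more than 1 region were few, with 168 genes holding the 170 summits inside spans. OPCML, a cell adhesion gene, held 2 (parental folds 5.83 and 2.78), SNRPN, an imprinted gene of a splicing protein, held 2 (5.05 and 4.54), and TBC1D19 held 2 (4.04 and 3.82). At SNRPN the ROSA26 folds were 4.34 and 7.94, with summits at positions 15530 and -8225 bp from the nearest SNRPN start (negative upstream). At TBC1D19 one summit lay 55 bp upstream of the TBC1D19 start.

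Among the noncoding locations, the strongest region of the whole set lay at RPL18P8, a pseudogene named after a ribosomal protein gene (chromosome 11, 39161440 to 39161973). Its peak (39161549 to 39162234) had 210 parental reads and 226 ROSA26 reads (folds 12.1 and 13.0), with the summit 67 bp inside the pseudogene and 952293 bp from the nearest protein-coding gene end. The next lay at the shared end of CZ1P-ASNS, a lncRNA gene, and CCZ1P-OR7E38P, a transcribed pseudogene (chromosome 7, 97971956 to 97972688), with 216 and 254 reads (folds 11.8 and 14.4), the summit 16 bp from that end. TPTE2-AS1, a lncRNA gene, had a peak 23 bp upstream of a start (chromosome 13, 19586734 to 19587386), with 188 and 152 reads (folds 10.3 and 6.4). In that case the ROSA26 value was the lower one, unlike at the other 2.

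LOC112268250, a lncRNA gene, had a summit 3 bp from its end (chromosome 19, 9406724 to 9407385), with 182 and 180 reads (folds 9.52 and 10.5). Inside BEND3P1, a pseudogene (chromosome 10, 50659982 to 50660530), 135 and 146 reads were found (folds 8.22 and 8.87). LINC01535, a lncRNA gene in the zinc finger cluster that also holds ZNF875, had a summit 15 bp from its end (chromosome 19, 37251552 to 37252182), with 189 and 193 reads (folds 8.18 and 10.4). Each of these 6 noncoding regions had at least 135 reads in both controls.

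A noncoding gene end lay within 1 kb of 144 of the 349 summits (41.3%, 36.0 to 46.6), and of 41.5% of the kept span-distal summits. Ends of lncRNA genes were near 107 summits (30.7%) and pseudogene ends near 39 (11.2%), against 32.2% and 9.27% of the kept. Genes transcribed by RNA polymerase III or coding for spliceosomal RNA were also present, with tRNA gene ends near 5 summits (1.43%) and snRNA gene ends near 4 (1.15%), against 1 (0.488%) and 2 (0.976%) of the 205 kept ones. The tRNA genes were TRT-CGT4-1 (355 bp, parental fold 7.67), TRT-AGT1-3 (184 bp, 5.58), TRI-TAT2-2 (117 bp, 5.38), TRY-GTA5-5 (505 bp, 3.99) and the pair TRP-CGG1-3 and TRD-GTC2-11 (247 and 842 bp, 3.73). All 4 snRNA genes belong to the U1 family, namely RNU1-1 (292 bp, 3.21), RNVU1-14 (350 bp, 5.34), RNVU1-15 (314 bp, 3.75) and RNVU1-2A (297 bp, 3.02). At the summits near TRT-AGT1-3, TRI-TAT2-2 and RNVU1-2A an end of a lncRNA gene lay closer, at 5, 77 and 25 bp. The small RNA genes were named after their values were seen. Copies of tRNA, U1 and pseudogene sequence resemble one another, and how reads with several matches were treated is not given in the sources used here, so reads at these regions may be shared between copies.

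Intergenic regions were weaker at the top. The strongest, on the X chromosome (52920628 to 52921289), had 112 parental and 123 ROSA26 reads (folds 6.83 and 6.42), 12414 bp from FAM156B. One on chromosome 7 (6729421 to 6729956) had 121 and 117 reads (folds 6.75 and 7.05), 22418 bp from RSPH10B2. One on chromosome 1 (144546558 to 144547017) had 96 and 118 reads (5.86 and 7.71). The rest of the 6 strongest lay on chromosome 5 (179455741 to 179456499, 5.55 and 7.58), chromosome 17 (51372574 to 51373096, 5.54 and 3.59) and chromosome 19 (522981 to 523880, 5.28 and 5.39). The summits of the last differed by 512 bp between the controls, so that they may mark different positions within a peak 900 bp wide.

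By chromosome, the share of the set differed from the share of all control-shared peaks in both directions. Chromosome 19 held 47 of the 349 regions (13.5%) and 11.1% of all control-shared peaks, and chromosome 1 held 34 (9.74%) against 9.77%. Chromosome 4 held 18 (5.16%) against 3.07%, and chromosome 11 held 10 (2.87%) against 5.66%. On chromosome 19, 47 of 75 span-distal peaks were missing (62.7%, 50.7 to 73.6), close to the 63.0% over all chromosomes. Chromosomes 4 and 11 were alike by this share, with 18 of 25 (72.0%, 50.6 to 87.9) and 10 of 14 (71.4%, 41.9 to 91.6).

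Genes with a region inside their span numbered 168 of 19974 protein-coding genes (0.841%), and 2 of 134 distinct genes on 6 lists that bear on melanoma or on GABP (1.49%). Of 21 melanocyte lineage genes, 1 had a summit inside its span, TFAP2A, a transcription factor of the neural crest, with 78 and 83 reads (folds 3.24 and 5.52) at a summit 122 bp downstream of the start of TFAP2A-AS2. Of 29 ETS family genes, 1 did, ELF2, with 51 and 47 reads (folds 3.15 and 3.15) at a summit 254 bp upstream of an ELF2 start. None was found among 25 MAPK pathway genes, 18 telomere genes, 30 mitochondrial genes, or 15 AP-1 and TEAD factor genes. With 0.841% of all genes holding a region, lists this short could well hold none. Sites within 1 kb of a gene end are outside the rule, so these absences do not show that the genes kept their peaks. The kept span-distal peaks gave 0 genes in 5 of these lists and 1 in the mitochondrial list, ATP5F1A.

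At the edges of the rules, the 2 regions nearest to a gene end lay 1020 bp from that of OXSR1, a kinase gene (folds 3.58 and 4.28), and 1029 bp from that of GATAD1 (4.15 and 2.96). The missing peaks just within the limit lay 993 bp from an end of BSN (folds 5.17 and 5.72) and 972 bp from an end of GAPDH (3.45 and 3.88). The weakest region of the set, inside LOC105372903 on chromosome 1 (211606910 to 211607282), had 70 and 94 reads (folds 2.27 and 3.72).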

How the data were processed

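GABPA ChIP-seq peak lists of 3 libraries (parental, ROSA26 knockout, B1 knockout with TERT) were used, 1 per condition; the 3 input samples have no values here. Bowtie2, SAMtools and MACS2 on hg38 are named in the submitters' processing notes; versions, thresholds and the handling of duplicates, of reads with several matches and of the input are not stated in the labels. The deposited lists give, per peak, a fold enrichment, −log10 values of p and q, a score (10 times −log10 q, decimals dropped) and the summit offset. Folds and −log10 p served to rank or describe peaks within their own list, and the score was not used further.

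Reads at each summit were solved from fold and −log10 p as MACS2 relates them (fold is pileup plus 1 over background plus 1, p a Poisson tail, pileup a whole number of reads times 1 scale per library), within 0.01 reads for all peaks. The solver was tested on simulated data. Background is the most common local background in each list, held by 571 parental, 611 ROSA26 and 337 knockout peaks. Coordinates are hg38, 1-based.

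Gene spans (19974 protein-coding) and starts came from RefSeq tables of GRCh38.p14, the same assembly as hg38; starts were taken from its promoter windows, which hold 22156 protein-coding and 12836 lncRNA entries and none used here on chromosome 8 (14 regions) or on contigs outside the chromosomes (2 regions). With no genome sequence used here, motifs were counted inside those windows only, and the planned flanking windows were not analysed. Intervals are exact Clopper-Pearson 95% intervals, for counting error over peaks only. They treat regions as separate, although 3 pairs of summits of the set lay within 10 kb of each other. Regions with summits at 19455441 and 19456083 on chromosome 4 had the same ROSA26 fold (4.15) and reads (75), so they may rest on 1 ROSA26 peak. With 1 library per condition no test was made. Named regions are the 6 with the highest parental fold in each location, spans with more than 1 region, listed genes that hold a region, the weakest region and those at the 1 kb limit; others are marked. The regions, lists and measures were chosen with earlier results of these data known. Python 3.11.15, numpy 2.4.6, pandas 2.3.3 and scipy 1.17.1 were used.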

Additional observations from a re-analysis of the deposited data

How the results depend on the processing

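Over the alternatives, 25 of 35 values stayed within 1.5 times the count or inside the interval of the reported value. The number of regions (349) was 296 to 412 when the distance to a gene end was 2 kb or 500 bp, 355 with an overlap of 50% and 351 with ROSA26 summits. It fell to 28 with lists of equal length and to 150 with a parental −log10 q of at least 20. The share of span-distal control-shared peaks that were missing (63.0%) was 15.2% with lists of equal length, where 11.8% of all control-shared peaks were missing. It was 43.5% with the q limit, for which the share over all control-shared peaks is not given here. The q limit also raised the median parental fold to 4.88, and fewer weak peaks enter by construction. The share near a noncoding gene end was 35.5% within 500 bp, and that near an annotated start was 48.6% within 2 kb, as the distances imply. The share with the ETS motif (48.0%) was 34.4% within 100 bp of the summit, where 32 regions had enough sequence, 20.0% with CCGGAAGT and 69.3% with CGGAAG. No paired analysis was possible because each condition has 1 library.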

Other observations

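Pseudogenes near the span-distal regions were set beside the genes they are named after. For 20 pseudogenes with an end within 1 kb of a summit, the symbol was that of a protein-coding gene followed by P and an optional number, and symbols built otherwise, such as FRG1DP, were left out. They name 16 distinct genes, of which 10 (62.5%) had a parental summit within 1 kb of a span end and 5 (31.2%) a knockout summit. Over all 19974 protein-coding genes the shares were 15.5% and 9.32%. The pseudogenes were chosen for lying beside a parental peak, and genes with pseudogenes elsewhere were not counted. These shares are therefore a description and not a measure of enrichment. RPL18, a ribosomal protein gene, had a parental peak and no knockout peak, as did RPL18P8 (parental fold 12.1) and RPL18P7 (3.66), of which only the pseudogenes belong to the regions described here. CCZ1, SBDS and PMS2 also had a parental and no knockout peak, while PDCD6, BMS1 and CFL1 had both, and PDCD6P1, BMS1P1 and CFL1P1 each lie within 1 kb of a region with no knockout peak. The region 89 bp from CFL1P1 is the one 2 bp from the ATAD1 start. The summit 109 bp from BMS1P1 lay closer to GLUD1P2 (72 bp), and GLUD1 had neither peak. How reads that match more than 1 copy were placed is not given in the sources used here, so reads at the copies and at their genes may be shared.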
